A study of Mus musculus with 11 samples.

Results

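Transcription factors and markers of the endothelial to mesenchymal transition were followed in endothelial cells of the liver sinusoids (LSEC), which line the hepatic capillaries with a sieve of open pores, with and without a genetic block of endothelial autophagy. The 9 genes were chosen by name, as the factors Snai1, Snai2, Zeb1 and Twist1 and the markers Vim, Cdh2, Fn1, S100a4 and Fap. All 9 were found among 19505 gene symbols on the array, each with 1 transcript cluster, the group of probes that reads 1 gene. Expression was measured on 11 Mouse Clariom S arrays, 6 from wild type and 5 from knockout preparations. Both groups carried Atg5lox/lox alleles, and the knockout group also carried VE-cadherin-Cre, a Cre recombinase under the promoter of the endothelial cadherin gene Cdh5, so deletion is aimed at all endothelium and not at LSEC alone. Every mouse was 8 weeks old at the start of a high fat diet and was sampled after 2 weeks on it. No group on another diet is compared here, so the values show genotype on that diet and not the effect of the diet. Arrays are labelled as biological replicates without saying whether each is 1 animal or a pool, and a p-value therefore speaks only of the spread among these samples.

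In the transition an endothelial cell loses its junctions and gains the shape, matrix and motility of a mesenchymal cell. TGF-beta acting through SMAD proteins induces SNAI, ZEB and TWIST factors, which bind E-box sequences and repress junction genes, while vimentin, N-cadherin and fibronectin rise. In liver the same markers are also made by other cells: stellate cells and fibroblasts express most of them, hepatocytes make plasma fibronectin and N-cadherin, and leukocytes express vimentin and S100a4. In RNA from a bulk preparation, fewer cells of a type and less RNA per cell cannot be told apart.

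The preparations held RNA of LSEC and of other cells. All 11 measured LSEC markers lay above the mean of the array's 23 antigenomic background rows in every array, and their mean log2 level ran from 11.62 to 11.97 in wild type and from 11.63 to 12.04 in knockout. Hepatocyte markers averaged 8.87 to 10.39 in wild type and 7.86 to 9.51 in knockout, with all 15 differences below 0 and 11 called lower in knockout. Kupffer cell and macrophage markers averaged 7.19 to 8.69 and 7.85 to 10.44, with all 13 differences above 0 and 12 called higher in knockout. The 14 stellate cell and fibroblast markers were above background in all arrays, with means of 7.69 to 8.70 and 7.87 to 8.95, and none was called. "Called" here is the rule of the study, a change of 1.5-fold or more together with an uncorrected p no higher than 0.05, applied to a limma fit over all 22206 clusters. Atg5 averaged 7.50 ± 0.09 (SD, n = 6) among wild type arrays against 7.60 ± 0.17 (SD, n = 5) among knockout arrays, and as the position of its probes relative to the deleted part is not known here, this checks nothing. Every direction therefore follows the labels.

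None of the 9 transition genes was called between genotypes. Their log2 differences, knockout minus wild type, ran from -0.20 for Snai1 to 0.37 for Fn1, with 5 above 0, 4 below and a median of 0.01. Over all clusters tested the median was -0.02, and 1.03% were called in either direction (0.671% higher and 0.356% lower in knockout). After Benjamini-Hochberg adjustment over all clusters the members had limma p from 0.79 to 0.99, and no cluster on the array passed 0.05. No member reached an unadjusted p of 0.05 in limma, as 6.39% of clusters did, or in an exact permutation test that enumerated all 462 ways to split them, and for each of the 9 the genotypes overlapped, as they did for all but 0.473% of clusters. For Snai2, Zeb1, Vim and S100a4 the 95% interval of the difference lay inside a 1.5-fold change in both directions, whereas the intervals of the other 5 reached past it on at least one side.

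**Figure D1:**
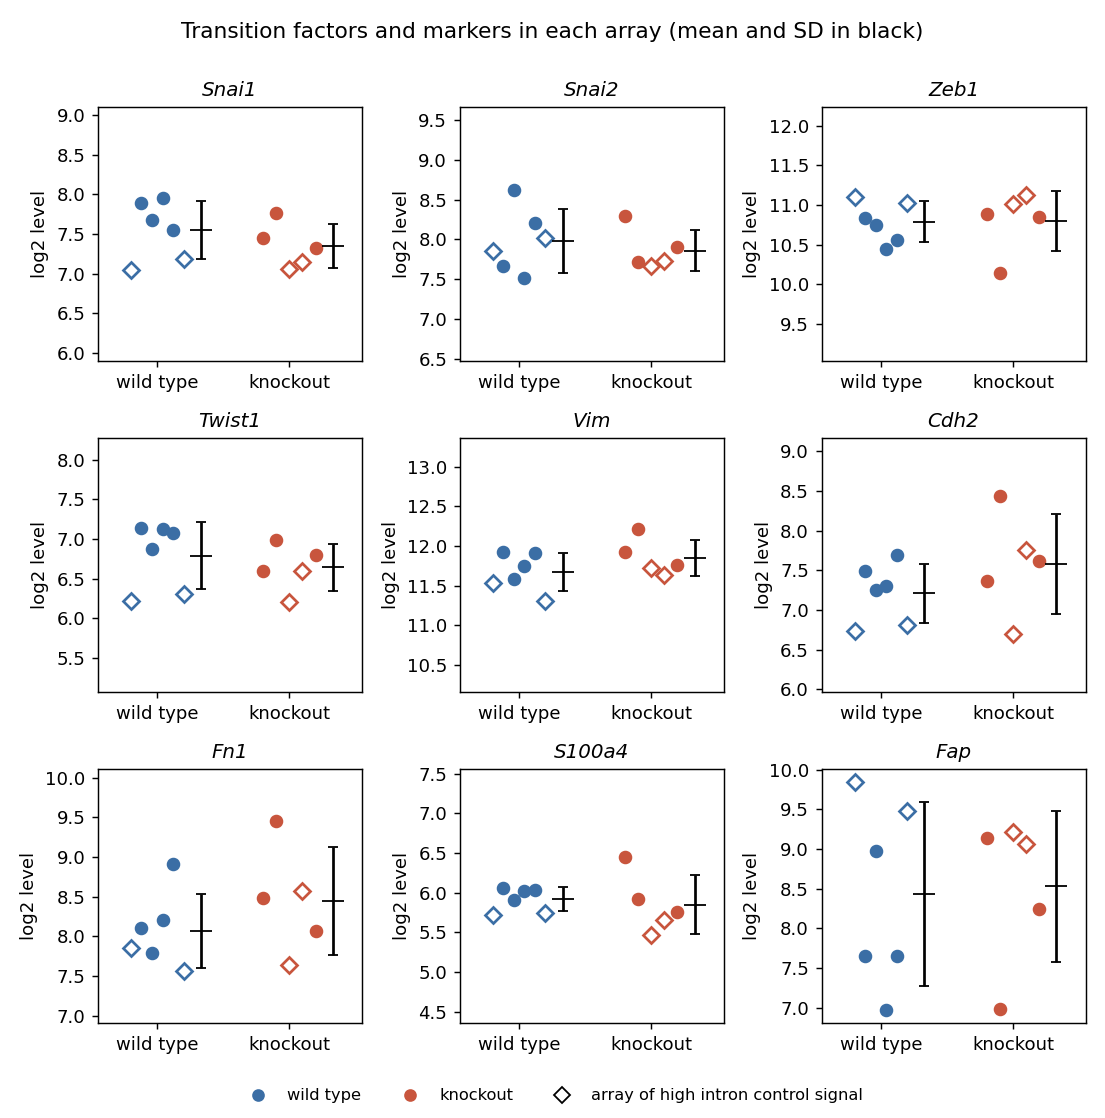
Log2 level of each of the 9 genes (vertical axes, all spanning the same range) in the 6 wild type and 5 knockout arrays, with mean and SD in black; open diamonds are the 4 arrays of high intron control signal. The genotypes overlap in every panel, and Fap spreads farthest, from 6.97 to 9.85.

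The SNAI and TWIST factors did not separate by genotype. Snai1, a zinc finger repressor of cadherin genes, ran from 7.04 to 7.95 around a median of 7.62 in wild type. Its knockout arrays read 7.45, 7.76, 7.06, 7.15 and 7.32, all within the wild type range. The difference was -0.20 (SE 0.18, 95% interval -0.60 to 0.19, exact permutation p = 0.331), with 1 of 5 knockout arrays above the wild type mean. For Twist1, a basic helix-loop-helix factor of mesoderm and neural crest, the lowest, median and highest wild type values were 6.22, 6.97 and 7.14. The 5 knockout values were 6.60, 6.99, 6.20, 6.59 and 6.80, and the lowest of them, 6.20, lay just under the wild type range. Twist1 differed by -0.15 (SE 0.20, 95% interval -0.59 to 0.28, exact permutation p = 0.496). Snai2, the closest relative of Snai1, spanned 7.51 to 8.62 in wild type and 7.67 to 8.30 in knockout, a difference of -0.11 (SE 0.19, exact permutation p = 0.597). Its sign rested on wild type array 3, the highest of all, and was 0.01 without it.

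How far these 3 factors exceed background depends on the yardstick. All 9 genes lay above the mean of the background rows in all 11 arrays. Background rows are named by GC number, and their mean over the arrays was 2.63 for the row of lowest number and 7.75 for that of the highest. Against their 95th percentile (7.78 to 8.66 over the arrays) Snai1, Twist1 and S100a4 were above in 0 arrays, Cdh2 in 1, Snai2 in 3, Fn1 in 4 and Fap in 6. Only Zeb1 and Vim passed in all 11. The GC content of the probes is not known here, so whether the dimmer genes are expressed was not tested.

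Zeb1, a zinc finger and homeodomain repressor, was above background by both measures and had almost the same mean in both genotypes. Wild type arrays ran from 10.44 to 11.10 with a median of 10.80. Knockout arrays read 10.88, 10.14, 11.01, 11.12 and 10.85. Knockout array 2 thus stood below every other array, and the remaining 4 lay from 10.85 to 11.12, above the wild type median. The difference was 0.01 (SE 0.18, 95% interval -0.37 to 0.40, exact permutation p = 0.944). Without knockout array 2 it was 0.18, and it turned below 0 when any one of 5 arrays was omitted, namely wild type arrays 4 (-0.06) and 5 (-0.03) and knockout arrays 1 (-0.01), 3 (-0.04) and 4 (-0.07).

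Vim, the intermediate filament protein of mesenchymal, endothelial and blood cells, was far above background in each array. It ran from 11.31 to 11.92 in wild type, with a median of 11.67. The knockout arrays read 11.92, 12.21, 11.72, 11.64 and 11.76, of which 4 of 5 exceeded the wild type mean of 11.67 ± 0.24 (SD, n = 6). The knockout mean was 11.85 ± 0.23 (SD, n = 5) and the difference 0.18 (SE 0.14, 95% interval -0.12 to 0.48, exact permutation p = 0.234). In fold terms this is 1.13-fold, with an interval from 0.918 to 1.4. Without knockout array 2 it was 0.09.

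The adhesion and matrix markers Cdh2 and Fn1 had the largest genotype differences of the 9, neither of which passed a test over all 11 arrays. Cdh2 encodes N-cadherin, the adhesion molecule that replaces other cadherins in mesenchymal cells. Its wild type arrays ran from 6.74 to 7.69 (median 7.28), and its knockout arrays read 7.37, 8.43, 6.70, 7.76 and 7.62. Knockout array 2 was the highest of all arrays and knockout array 3 the lowest. The difference in Cdh2 was 0.36 (SE 0.26, 95% interval -0.21 to 0.93, exact permutation p = 0.258). Omitting knockout array 2 gave 0.15, and omitting knockout array 3 gave 0.58, where the unadjusted limma p was 0.02622 and the fold stayed under the rule. Fn1 encodes fibronectin, a matrix glycoprotein that binds integrins and collagens. In wild type it ran from 7.56 to 8.91 (median 7.98), and in knockout it read 8.48, 9.46, 7.64, 8.57 and 8.07. Again knockout array 2 was highest, followed by wild type array 5. The difference in Fn1 was 0.37 (SE 0.30, 95% interval -0.27 to 1.01, exact permutation p = 0.318), with 0.12 without knockout array 2 and 0.57 without knockout array 3.

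**Figure D2:**
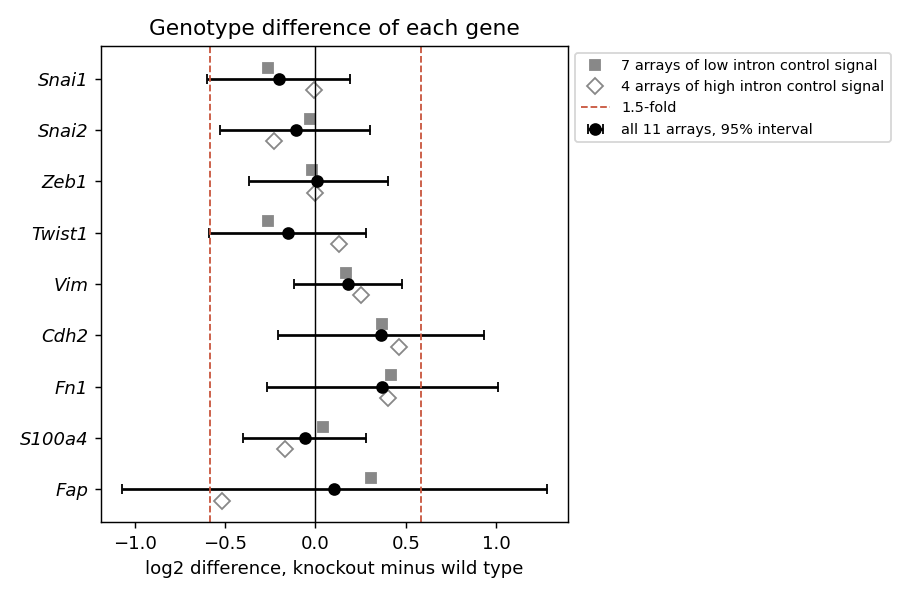
Log2 difference (knockout minus wild type, horizontal axis) of each gene from all 11 arrays with its 95% interval (black), beside the difference within the 7 arrays of low (grey squares) and the 4 arrays of high intron control signal (open diamonds, no interval). All intervals include 0, and dashed lines mark a 1.5-fold change.

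In each genotype the array highest in Fn1 and Cdh2 was also high in markers of other liver cells. Knockout array 2, highest for both, also had the highest macrophage marker mean (10.44) and stellate marker mean (8.95). Wild type array 5, highest of its genotype for both, had the highest hepatocyte mean of all arrays (10.39) and the highest macrophage mean of the wild type group (8.69). Knockout array 4 was exceeded only by knockout array 2 for Cdh2 (7.76), and only by knockout array 2 and wild type array 5 for Fn1 (8.57). Yet its hepatocyte mean was the lowest of all arrays (7.86), with a macrophage mean of 8.24 and a stellate mean of 8.64. When the hepatocyte marker mean entered the limma fit, both genes were called higher in knockout by the rule of the study, Fn1 by 1.0 (limma adjusted p = 0.32) and Cdh2 by 0.70 (limma adjusted p = 0.57). With the macrophage mean as a covariate the differences turned to -0.41 and -0.30. With the stellate mean they were 0.04 and 0.01. With hepatocyte and macrophage means together they were -0.22 and -0.95, and Cdh2 was then called lower in knockout (limma adjusted p = 0.79). The hepatocyte and macrophage lists differed between genotypes in opposite directions, the sign of these 2 genes depended on which mean was held constant, and the part of other cells in it was not tested further. Vim went the same way, with 0.43 under the hepatocyte mean and -0.11 under the macrophage mean. Under the macrophage mean the differences were also farther from 0 for Snai1 (-0.52), Twist1 (-0.56) and Zeb1 (0.45). Their unadjusted limma p was 0.02219, 0.01623 and 0.009974, their adjusted p 0.23, 0.22 and 0.20, and none met the rule.

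**Figure D3:**
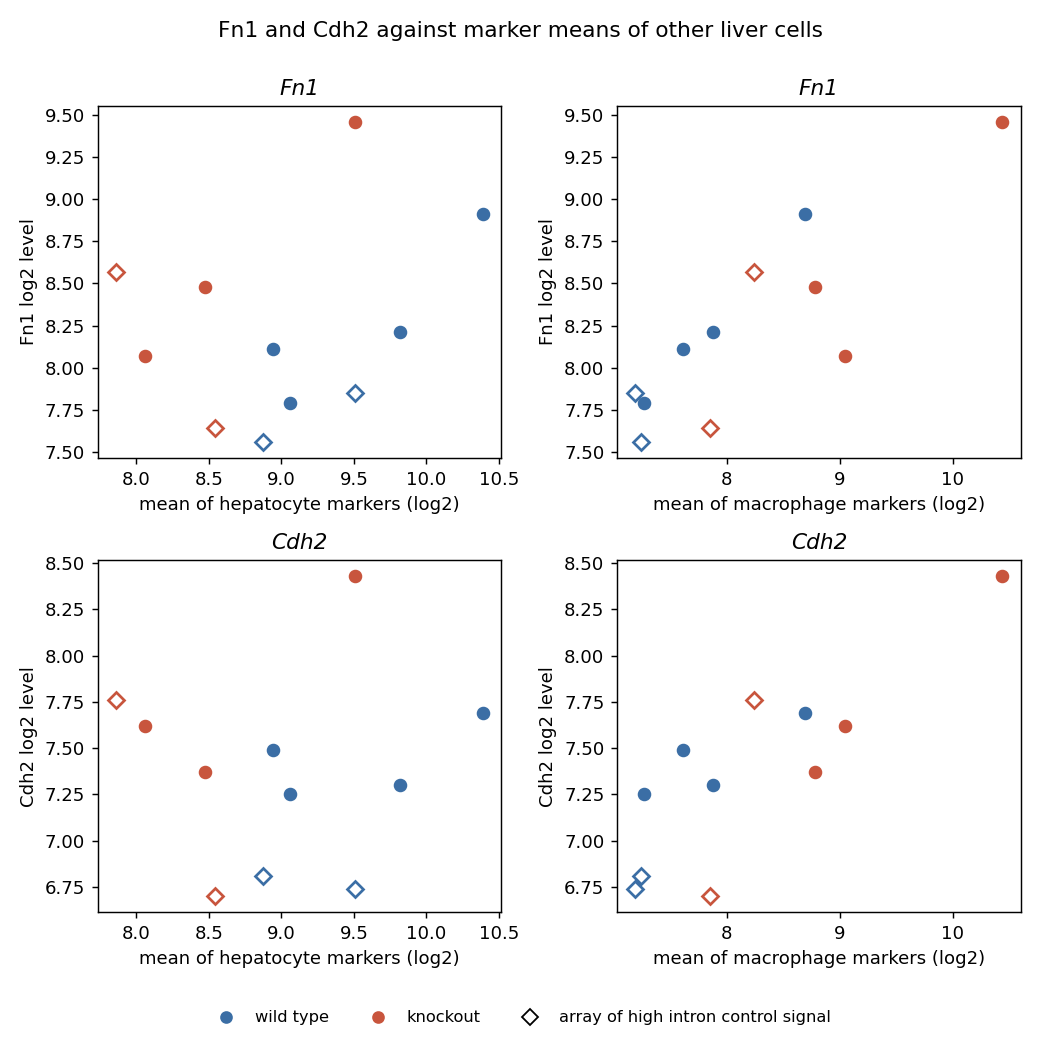
Fn1 (top) and Cdh2 (bottom), log2 level on the vertical axes, against the mean log2 level of hepatocyte markers (left) and of macrophage markers (right) in each of the 11 arrays. Knockout array 2 lies at the top right of both macrophage panels, at a macrophage mean of 10.44.

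S100a4, a calcium-binding protein of fibroblasts and leukocytes, lay a median of 0.97 above the background mean of the array. It spanned 5.72 to 6.06 in wild type and 5.47 to 6.45 in knockout, where array 1 lay above the wild type range and arrays 3 and 4 below it. Knockout array 1 also had the highest lymphocyte marker mean (6.50) and the highest neutrophil and monocyte mean (8.00), and the part of those cells was not tested. Of the 12 lymphocyte markers 8 were above the background mean in all arrays, and none reached its 95th percentile in most arrays. The S100a4 difference was -0.06 (SE 0.16, 95% interval -0.40 to 0.28, exact permutation p = 0.74), and 0.03 without knockout array 3.

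Fap, a membrane serine protease of activated fibroblasts, varied most of the 9 from array to array. Wild type values ran from 6.97 to 9.85 with a median of 8.31, and knockout arrays read 9.14, 6.98, 9.22, 9.07 and 8.25. Its range over the 11 arrays, 2.88 on the log2 scale, was wider than that of 99.3% of clusters, whose median range was 0.80. The difference between genotypes was 0.10 (SE 0.54, 95% interval -1.07 to 1.28, exact permutation p = 0.874), so neither a halving nor a doubling lay outside its interval. It turned below 0 when any one of 6 arrays was omitted, which were wild type arrays 2 (-0.05), 4 (-0.19) and 5 (-0.05) and knockout arrays 1 (-0.05), 3 (-0.07) and 4 (-0.03). Given the macrophage marker mean as a covariate it was called at 1.41 (limma adjusted p = 0.19), and with the hepatocyte mean -0.83.

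For some of the 9 genes the level within a genotype ran along with a control measure. The table holds 5222 negative control rows, taken here as the intron controls of the platform's normalization genes, and their mean fell into 2 classes, 5.75 to 5.96 in 4 arrays (wild type arrays 1 and 6, knockout arrays 3 and 4) and 5.05 to 5.38 in the other 7. These classes were made from the control rows after the data were seen, and each holds both genotypes. Snai1 was 7.04, 7.19, 7.06 and 7.15 in the 4 arrays of high intron signal and 7.32 to 7.95 in the 7 others. Twist1 ran from 6.20 to 6.59 against 6.60 to 7.14, and S100a4 from 5.47 to 5.75 against 5.76 to 6.45, so these 3 genes lay lower in all 4 arrays, for Twist1 and S100a4 by a gap no wider than the rounding of the values. Zeb1 was 11.10, 11.03, 11.01 and 11.12 in the 4 arrays and 10.14 to 10.88 in the 7, higher in all 4. Thus 4 of the 9 genes did not overlap between the classes, where 14.1% of all clusters did not (6.89% higher and 7.17% lower in the 4 arrays).

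Fap read 9.07 to 9.85 in the 4 arrays of high intron signal and 6.97 to 9.14 in the others, a mean difference of 1.46, or 2.75-fold. Only knockout array 1, at 9.14, crossed into the range of the high class. Its intron signal was 5.38, the highest of the low class. Snai2, Vim, Cdh2 and Fn1 overlapped between the classes, with differences (high minus low) of -0.17, -0.31, -0.59 and -0.53. The background mean was also lower in the 4 arrays (4.67 to 4.88 against 4.90 to 5.17), and the LSEC marker mean was 11.62 to 11.79 against 11.82 to 12.04. The part of RNA quality or background in these differences was not tested.

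**Figure D4:**
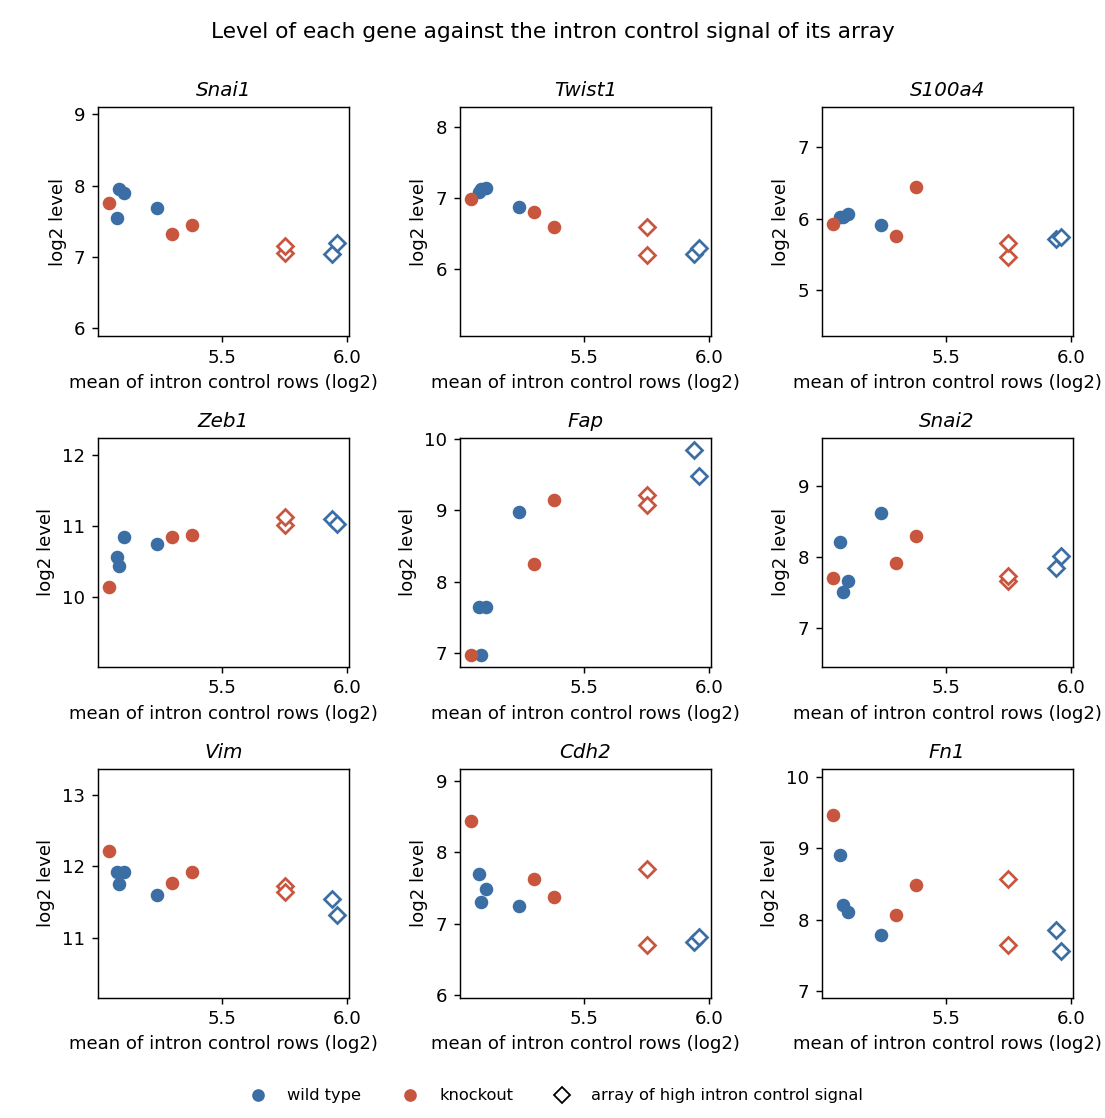
Log2 level of each gene (vertical axes, same span) against the mean log2 signal of the intron control rows of the same array (horizontal axis), with wild type in blue, knockout in red and the 4 arrays of high intron signal as open diamonds. Snai1, Twist1 and S100a4 are lower and Zeb1 is higher in all 4 of those arrays, and Fap climbs from 6.97 to 9.85.

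Within the classes genotype differences stayed below the rule. In the 7 arrays of low intron signal (4 wild type and 3 knockout) none of the 9 was called, against 1.62% of all clusters, and differences ran from -0.26 for Snai1 and Twist1 to 0.42 for Fn1. The smallest exact permutation p among them was 0.0857, for Twist1. In the 4 arrays of high signal (2 of each genotype) the differences ran from -0.52 for Fap to 0.46 for Cdh2, and no test was made. Cdh2 (0.37 and 0.46), Fn1 (0.42 and 0.40) and Vim (0.17 and 0.25) lay above 0 in both classes. Snai1 (-0.26 and -0.01) and Snai2 (-0.03 and -0.23) lay below 0 in both. The sign differed between classes for Twist1 (-0.26 and 0.13), S100a4 (0.04 and -0.17) and Fap (0.31 and -0.52), and Zeb1 read -0.02 and 0.

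Promoter sequences are shown for Snai1, Twist1 and S100a4, the genes that were lower together in those 4 arrays, and for Vim, which overlapped. Windows were matched by symbol for 4 of the 9 genes. They are the 250 bases before the annotated gene start in RefSeq (GRCm38.p6), 5′ to 3′ on the plus strand that carries all 4 genes. Capitals mark the E-box of SNAI and ZEB factors (CAGGTG or its complement CACCTG), the GC box (GGGCGG or CCGCCC) and the TATA box (TATAAA or TTTATA), searched on both strands.
Snai1, chr2:167537945-167538194: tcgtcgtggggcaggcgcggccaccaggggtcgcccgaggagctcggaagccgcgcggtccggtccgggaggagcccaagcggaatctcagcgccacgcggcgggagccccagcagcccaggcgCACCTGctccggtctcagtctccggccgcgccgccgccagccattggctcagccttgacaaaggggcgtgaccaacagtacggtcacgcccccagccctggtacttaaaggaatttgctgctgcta
Twist1, chr12:33957421-33957670: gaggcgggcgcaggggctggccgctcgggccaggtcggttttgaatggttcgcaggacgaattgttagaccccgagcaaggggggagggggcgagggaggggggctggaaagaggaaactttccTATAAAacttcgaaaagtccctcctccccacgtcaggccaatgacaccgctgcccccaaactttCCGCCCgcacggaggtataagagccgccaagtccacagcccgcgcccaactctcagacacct
S100a4, chr3:90603520-90603769: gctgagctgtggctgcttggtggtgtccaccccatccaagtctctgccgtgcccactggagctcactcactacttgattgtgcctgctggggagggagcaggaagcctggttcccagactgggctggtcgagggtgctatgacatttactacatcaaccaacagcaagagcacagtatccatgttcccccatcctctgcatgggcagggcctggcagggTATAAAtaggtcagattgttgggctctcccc
Vim, chr2:13574061-13574310: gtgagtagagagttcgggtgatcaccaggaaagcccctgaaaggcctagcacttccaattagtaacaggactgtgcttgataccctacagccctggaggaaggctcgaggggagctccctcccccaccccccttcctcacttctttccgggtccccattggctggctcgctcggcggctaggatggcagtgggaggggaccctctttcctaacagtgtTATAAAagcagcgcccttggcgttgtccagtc
The Snai1 window held 1 E-box, CACCTG, beginning 126 bases before the start, and none of the other 3 windows held that E-box, which occurs in 17.2% of 32851 promoter windows of this length. The wider E-box CANNTG, of which CAGGTG is one form, occurs in 66.2%, and Snai1 held 1 and the others 0. TATAAA began 31 bases before the start in S100a4, 32 in Vim and 126 in Twist1, against 12.4% of all windows, and Twist1 alone held a GC box (32.7% of all windows). GC content was 70.0% for Snai1, 62.4% for Twist1, 58.4% for Vim and 57.2% for S100a4, all above the median window of 52.4%. The 3 genes that were lower together shared none of these letters that Vim lacked, and Snai1 and S100a4 shared none at all.

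Relations between the genes were examined in the 7 arrays of low intron signal, after subtraction of the genotype means, because a correlation over both classes would mix them. The intron signal still varied among these 7, from 5.05 to 5.38. Wild type array 3 and knockout arrays 1 and 5 (5.24 to 5.38) read 8.25 to 9.14 for Fap and 6.60 to 6.87 for Twist1. The others (5.05 to 5.11) read 6.97 to 7.65 and 6.99 to 7.14. The part of this remaining spread in the relations was not tested. Of 36 pairs, 10 had an exact permutation p of at most 0.05 and 0 passed after Benjamini-Hochberg adjustment, where the smallest value was 0.0857. The strongest was Twist1 against Fap, which ran opposite (Pearson r = -0.96, exact permutation p = 0.002381; Spearman rho = -0.90, exact permutation p = 0.009524, adjusted 0.136; n = 7). Without the 2 arrays farthest from the median of Twist1, r was -0.84. Vim and Fn1 ran in the same direction (r = 0.88, exact permutation p = 0.0121, adjusted 0.127; rho = 0.89, exact permutation p = 0.0123, adjusted 0.136), with r = 0.97 after the same omission. Cdh2 and Fn1 gave r = 0.84 (exact permutation p = 0.01667, adjusted 0.127; rho = 0.86, exact permutation p = 0.02381, adjusted 0.136). That relation rested on 2 arrays, with r = 0.14 without them. Over all 11 arrays 20 of the 36 pairs passed the adjusted permutation test, which includes the difference between the classes.

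Among 72 relations of the 9 genes with 8 marker means in the same 7 arrays, 0 passed adjustment (smallest 0.10). Fn1 against the hepatocyte mean gave a positive value (r = 0.93, exact permutation p = 0.004167, adjusted 0.10; rho = 0.86, exact permutation p = 0.02381, adjusted 0.245; r = 0.67 without 2 arrays). The macrophage mean gave a similar one (r = 0.94, exact permutation p = 0.007143, adjusted 0.129; rho = 0.86, exact permutation p = 0.02381, adjusted 0.245; r = 0.50 without 2 arrays). Cdh2 gave r = 0.92 against the macrophage mean (exact permutation p = 0.002778, adjusted 0.10; rho = 0.93, exact permutation p = 0.006746, adjusted 0.245; r = 0.62 without 2 arrays). It gave a like value against the stellate mean (r = 0.91, exact permutation p = 0.001984, adjusted 0.10; rho = 0.86, exact permutation p = 0.02381, adjusted 0.245; r = 0.79 without 2 arrays).

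As a description only, the clusters nearest to each gene over all 11 arrays were ranked among 14065 by Pearson r after subtraction of the genotype means, with both intron classes included. Nearest to Fap were Tasor, G2e3 and Nbeal1 (r from 0.986 to 0.992), to Zeb1 Hsp90aa1, Ankrd49 and Rsrc2 (0.978 to 0.981), and to Snai1 Nucb1, Mknk2 and Zbed3 (0.974 to 0.975). Cdh2 was nearest to Col14a1, Adamts13 and Susd2 (0.964 to 0.983), Fn1 to Mmp19, Cfap298 and Serping1 (0.940 to 0.974), and Vim to Ptk2b, Fndc10 and Npc2 (0.966 to 0.973). The nearest to Twist1 were Shisa7, Yipf2 and Ring1 (0.970 to 0.976), to Snai2 Ctbs, Ccpg1 and Cept1 (0.949 to 0.963), and to S100a4 B4galnt4, Oas1c and Oxnad1 (0.908 to 0.970).

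The pathway around the 9 genes was read from 4 lists with 78 measured genes, of which 0 were called in either direction, against 1.03% of all clusters. An unadjusted limma p of 0.05 was reached by 2 of the 78, against 6.39% of all clusters. They were Sox9 and Smurf1, each with an adjusted p of 0.76. Among 17 relatives and partners of the factors, 6 lay above 0 and 11 below, with a median difference of -0.08. Sox9, a transcription factor of bile duct and progenitor cells in liver, averaged 8.36 ± 0.32 (SD, n = 6) among wild type and 7.88 ± 0.23 (SD, n = 5) among knockout arrays. Its difference of -0.48 (SE 0.16, exact permutation p = 0.0281) is a 1.4-fold change, short of the rule. All 5 cholangiocyte and mesothelial markers lay below 0 as well (median -0.27), with means of 6.14 to 6.82 in wild type and 6.06 to 6.44 in knockout. Of these markers 4 were above the background mean in all arrays, and 0 passed its 95th percentile in most arrays. Their part in Sox9 was not tested. The inhibitor of helix-loop-helix factors Id2 differed by 0.30 (SE 0.20) and the homeobox gene Prrx1 by -0.21 (SE 0.15). Id2 was also higher in all 4 arrays of high intron signal.

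Upstream, 14 of 19 genes of TGF-beta input and SMAD relay lay above 0, with a median of 0.12, against 10207 of all 22206 clusters. The list mixes genes that carry the signal with genes that restrain it, so this count of signs gives no direction of signalling. Smurf1, a ubiquitin ligase that targets SMADs and receptors, read 9.46 ± 0.21 (SD, n = 6) and 9.75 ± 0.19 (SD, n = 5), a difference of 0.29 (SE 0.13, exact permutation p = 0.0303). Ltbp1, which tethers latent TGF-beta to the matrix, differed by 0.25 (SE 0.14), and the signal transducer Smad2 by 0.34 (SE 0.21). Of the 19 genes, 4 were higher and 3 lower in all 4 arrays of high intron signal, Smad2 among the former, against 6.89% and 7.17% of all clusters.

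Downstream, 20 of 25 mesenchymal and contractile targets lay above 0, against 10207 of all 22206 clusters. The 25 targets had a median of 0.14 and differences from -0.13 to 0.58. Whether any list shifted as a whole was not tested. The smallest p belonged to the actin-binding tropomyosin Tpm1 (0.30, SE 0.15), the fibronectin receptor subunit Itga5 (0.28, SE 0.16) and the PDGF receptor of stellate cells and pericytes Pdgfrb (0.52, SE 0.31), with exact permutation p of 0.0758, 0.126 and 0.195. Of the 14 stellate markers, 3 of which (Col1a1, Col3a1 and Pdgfrb) are also in this list, 12 lay above 0 (median 0.36), and their part was not tested. The 17 junction and identity genes listed as lost in the transition had a median of -0.02, with 7 above 0 and 10 below. Among them the epithelial cadherin gene Cdh1 differed by -0.23 (SE 0.13), the haemostatic protein Vwf by -0.51 (SE 0.35) and the junction molecule F11r by 0.15 (SE 0.12). All 15 hepatocyte markers and all 5 cholangiocyte and mesothelial markers lay below 0 as well, and their part in Cdh1 was not tested. Cdh5, which drives Cre here, differed by 0.01 (SE 0.09).

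**Figure D5:**
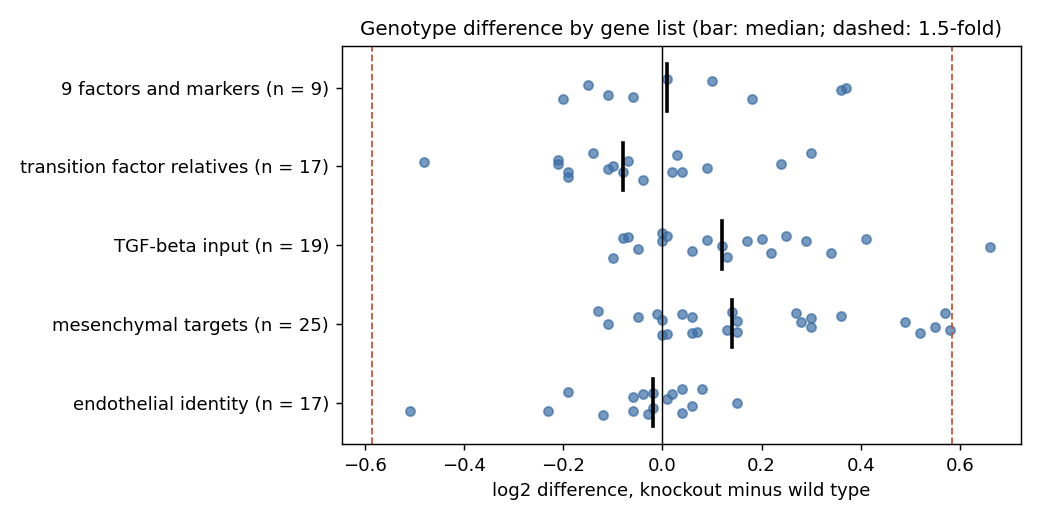
Log2 difference (knockout minus wild type, horizontal axis) of each measured gene in the set of 9 and in the 4 pathway lists, one point per gene, with the list median as a bar. Medians run from -0.08 to 0.14, and no gene was called, although Thbs1 in the TGF-beta list (0.66) lies past the dashed 1.5-fold line with an unadjusted limma p of 0.1298.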

How the data were processed

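Total RNA extracted with Trizol was labelled with biotin and hybridised to Mouse Clariom S arrays, per the labels' protocols. The submitters' processing notes name Affymetrix Expression Console and RMA. The deposited values are RMA output on the log2 scale, so they are already background-corrected, quantile-normalized and summarised, which removes changes shared by most genes and compresses weak signals. Of 28846 rows, 6640 control rows were left out and 22206 clusters were tested. Symbols came from the platform annotation, and the brightest cluster of a symbol was used. A linear model with genotype as its only term was fitted with lmFit and eBayes of limma 3.58.1 (R 4.3.3), its p-values were adjusted over all clusters by Benjamini-Hochberg, and genotypes were compared with two-sided exact permutation tests over 462 splits, whose smallest p is 0.0022. The fit was tested on simulated data.

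The 9 genes, the lists and the tests were chosen with earlier results of these data known. Named pathway genes are those called and, where fewer than 3 were, those of smallest p up to 3 per list; Atg5, Cdh5 and Thbs1 were named outside this rule, after their values were seen. Some listed genes were not analysed here. Alternatives were arrays left out, a replicate block, other normalizations, weights, variance models and filters, and marker means as covariates. The intron control classes, the intron mean, both marker means together and the relations within the 7 arrays were added after the data were seen. The number of arrays limits the precision.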

Additional observations from a re-analysis of the deposited data

Results flagged for a closer look

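Zeb1 in knockout array 2 read 10.14, apart from the other 4 knockout arrays at 10.85 to 11.12. The gap to the nearest of them was 0.72 of the range of the group. It was the only such array in 18 groups (9 genes in 2 genotypes) examined, and chance gives about 1 in 20 groups.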

How the results depend on the processing

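None of the 9 genes passed an adjusted p of 0.05 in any of the 26 refits, and in each the count of called genes was 0 except with the hepatocyte mean (2), the macrophage mean (1) or both means (2) as covariates. Signs turned for Zeb1 with repeated quantile normalization (-0.05), the hepatocyte mean (-0.36), and, each at -0.02, without the 4 arrays of high intron signal, with the intron class as a block or with the intron mean as a covariate. With the hepatocyte mean Twist1 (0.05), S100a4 (0.04) and Fap (-0.83) turned, and Fn1 (1.0) and Cdh2 (0.70) were called. With the macrophage mean Vim (-0.11), Cdh2 (-0.30) and Fn1 (-0.41) turned, Fap (1.41) was called, Snai1 (-0.52), Twist1 (-0.56) and Zeb1 (0.45) lay farther from 0 and the median of the 9 was -0.25. With both means Cdh2 (-0.95) and Fn1 (-0.22) turned, Cdh2 and Twist1 (-0.98) were called lower in knockout and the median was -0.28. S100a4 was 0.04 without the 4 arrays. The cause of these changes was not tested.

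With 1 array left out at a time, differences ran from -0.30 to -0.12 for Snai1, -0.22 to 0.01 for Snai2, -0.07 to 0.18 for Zeb1, -0.27 to -0.04 for Twist1, 0.09 to 0.23 for Vim, 0.15 to 0.58 for Cdh2, 0.12 to 0.57 for Fn1, -0.21 to 0.03 for S100a4 and -0.19 to 0.49 for Fap, and 0 of the 9 were called. Called pathway genes, 0 in the report, numbered 0 to 2 with an array left out (2 without wild type array 5 or knockout array 3, 1 without wild type array 6). They numbered 4 with the hepatocyte mean, 7 with the macrophage mean, 2 with the stellate mean, 3 with both hepatocyte and macrophage means, 3 without the 4 arrays, 2 with the intron mean and 2 by unadjusted p with no fold. With the replicate block 1 pathway gene and 0 of the 9 were called. Same-numbered arrays correlated between -0.32 and 0.39 in their deviations, and no block entered the report's fit. Of the 9 genes, 9 were above the background mean in all arrays and 2 above its 95th percentile.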
